A study of Mus musculus with 4 samples.

Results

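Protein phosphatase 1 (PP1) and protein phosphatase 2A (PP2A) are the main serine and threonine phosphatases of the cell, and 8 genes for their subunits were examined for peaks of the zinc finger transcription factors Eos and Helios in mouse regulatory T cells (Treg cells). The 8 genes were Ppp1ca, Ppp1cb, Ppp1r8, Ppp1r9b, Ppp1r11, Ppp1r12a, Ppp2ca and Ppp2r1a, of 21887 protein-coding genes on the chromosomes used. They were chosen from genes with peaks in these same lists, which also held peaks at 4 further PP1 subunit genes. A peak was taken as a gene's when its summit lay inside the gene, or when the nearest protein-coding gene end was the gene's and lay within 100 kb. That rule gave 9 peaks of the 1106 in the anti-Eos list and 5 of the 469 in the anti-Helios list. Because the peaks chose the genes, their presence and heights are a description and carry no test.

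The data are chromatin immunoprecipitation with sequencing (ChIP-seq), in which an antibody recovers the DNA a protein is bound to, from CD4+CD25+ Treg cells isolated from mouse spleen with a commercial kit. The lists used here came from wild-type cells with the anti-Eos antibody 18H2 and from wild-type cells with the anti-Helios antibody D8W4X, with 1 library each. The series has 4 libraries in all, and the other two, from mice that carried an Eos-flox allele with Foxp3-Cre, in which recombination is limited to cells that express Foxp3, were not analysed here. The sources used here do not give the strain or age of the mice, how many were pooled, or the control library behind each list. The meaning of a peak depends on that control: had the matching Eos-deficient library served as control, anti-Helios folds and overlaps would report signal gained over cells without Eos, and not Helios occupancy alone.

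PP1 works as a catalytic subunit, encoded by Ppp1ca, Ppp1cb or Ppp1cc, that gains its targets and location from a large set of regulatory subunits. PP2A is assembled from a catalytic subunit, a scaffold and a variable regulatory subunit. In mice, loss of the scaffold gene Ppp2r1a in Treg cells is known to cause autoimmune disease with overactive mTOR signalling.

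With 1 library per antibody there was no replicate error, and values describe these libraries. Over the whole lists, the fold enrichment over background, which is the authors' own value for each peak, had a median of 7.31 in the anti-Eos list and 7.66 in the anti-Helios list. The number of DNA fragments at each summit was worked back from the fold and the p-value of the peak by a formula of the type used by MACS, and its use is an inference from the values. Anti-Eos peaks rested on 7 to 106 fragments (median 14), and anti-Helios peaks on 9 to 124 (median 18). Intervals on fragments are exact 95% Poisson intervals and cover counting error only. No anti-Eos peak had a -log10 q under 2.08 and no anti-Helios peak one under 2.24, and places weaker than that are absent from the lists. Of 7 marker genes of Treg and T cells, Cd3d and Il2ra held an anti-Eos summit and Cd3d an anti-Helios summit. The lists of 4 B cell, 4 CD8 and NK cell, 3 myeloid and 3 erythroid marker genes held 0 summits of either antibody, which allows each of these marker lists up to 0.271% of the summits with anti-Eos and 0.640% with anti-Helios. Lists this short would mostly hold no summit at the shares found over all genes (given with the comparison of the antibodies), and a peak at a marker gene is not a measure of its expression, so the markers say nothing of the cells' purity.

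The stretches below are shown because they are the DNA that lay under the peaks just upstream of the annotated starts, for the 5 genes where peaks covered at least 30 bases there. They are RefSeq promoter sequence of GRCm38 (GRCm38.p6), written 5′ to 3′ along the gene and cut to the bases under an anti-Eos or anti-Helios peak, outside the gene record. Capitals mark GGGAA or its reverse complement TTCCC, the core recognised by the Ikaros family, to which Eos and Helios belong. Ppp1cb is chr5:32458728-32458847 on the plus strand, Ppp1r8 is chr4:132843170-132843313 on the minus strand, and Ppp1r12a is chr10:108161891-108162031 on the plus strand. Ppp2ca is chr11:52098574-52098786 and Ppp2r1a is chr17:20945306-20945453, both on the plus strand.
Ppp1cb: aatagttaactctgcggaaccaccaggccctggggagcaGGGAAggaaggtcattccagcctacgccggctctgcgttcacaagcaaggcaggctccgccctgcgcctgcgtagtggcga
Ppp1r8: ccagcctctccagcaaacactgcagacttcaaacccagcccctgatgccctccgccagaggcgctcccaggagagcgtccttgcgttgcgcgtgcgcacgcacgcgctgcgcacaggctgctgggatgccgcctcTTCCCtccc
Ppp1r12a: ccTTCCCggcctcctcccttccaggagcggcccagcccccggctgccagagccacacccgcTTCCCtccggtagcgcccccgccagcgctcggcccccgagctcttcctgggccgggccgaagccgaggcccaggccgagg
Ppp2ca: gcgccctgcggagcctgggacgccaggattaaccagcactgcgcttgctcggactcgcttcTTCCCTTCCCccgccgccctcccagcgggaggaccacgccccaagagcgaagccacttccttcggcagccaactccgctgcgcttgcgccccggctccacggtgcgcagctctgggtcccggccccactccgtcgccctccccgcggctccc
Ppp2r1a: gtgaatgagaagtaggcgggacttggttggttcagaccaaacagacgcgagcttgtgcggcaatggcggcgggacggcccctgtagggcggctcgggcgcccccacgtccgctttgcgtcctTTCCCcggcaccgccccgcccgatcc

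The antibodies differed in how many of the 8 genes they listed. Anti-Eos peaks lay at all 8 genes, with 2 at Ppp1r9b, and anti-Helios peaks at 5 of them. The 5 were both PP1 catalytic genes on the list (Ppp1ca and Ppp1cb), the PP1 inhibitor gene Ppp1r8, and both PP2A genes (Ppp2ca and Ppp2r1a). The 3 genes with anti-Eos peaks alone were Ppp1r9b, Ppp1r11 and Ppp1r12a, all of them for regulatory subunits of PP1. Over all protein-coding genes, 4.38% had an anti-Eos summit by the same rule, 2.12% an anti-Helios summit and 1.54% summits of both. Since these peaks chose the genes, nothing is read from the comparison with those shares.

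Of the 9 anti-Eos peaks, 5 overlapped an anti-Helios peak by at least 1 bp, against 27.9% of the whole anti-Eos list. All 5 anti-Helios peaks overlapped an anti-Eos peak, against 65.9% of the whole anti-Helios list. Among the 8, no gene had peaks of the antibodies at separate places only. All 8 genes were chosen with their peaks known and had an anti-Eos peak. A gene with an anti-Helios peak alone is therefore not among them, and nothing is read from either comparison. At the 3 genes with anti-Eos peaks alone, the nearest anti-Helios summit lay between 1081350 and 8752075 bp away.

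**Figure D1:**
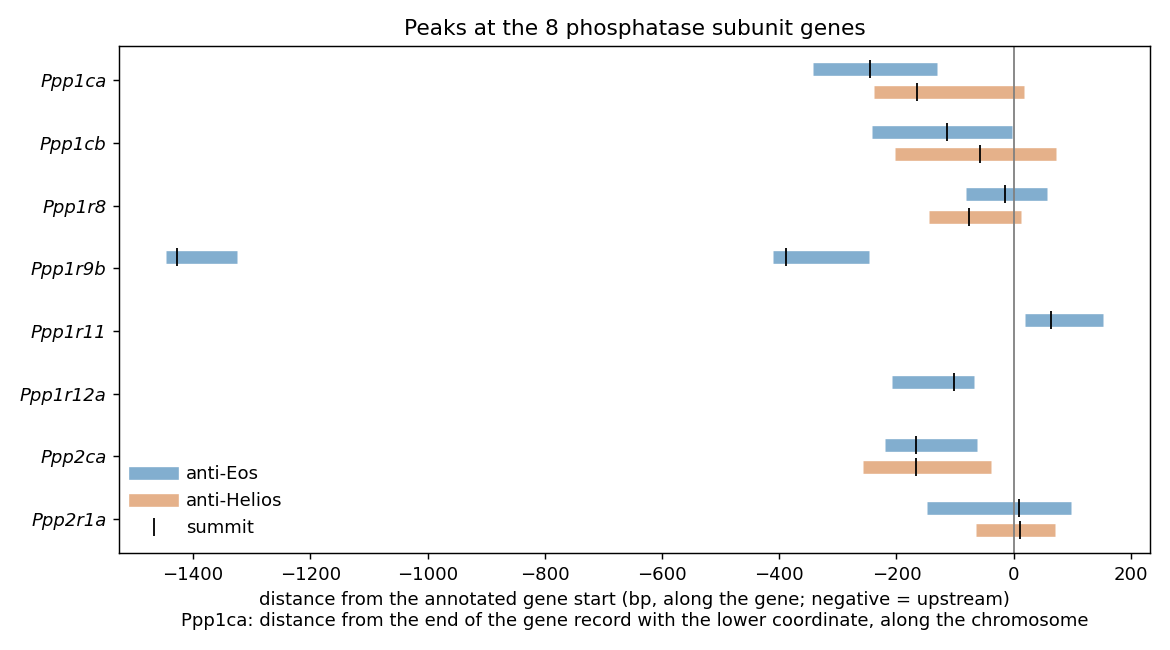
Horizontal bars show each peak by its distance in bp from the annotated gene start, along the gene, for the 8 genes (anti-Eos above, anti-Helios below, black ticks for summits). For Ppp1ca the distance runs along the chromosome from the lower-coordinate end of the gene record. Summits lie no more than 389 bp from 0 except for 1 anti-Eos peak of Ppp1r9b at -1427 bp.

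Most of the peaks sat close to an end of the gene, which was the start where the strand was given. Summits lay within 1 kb of an end of the gene for 8 of 9 anti-Eos peaks and 5 of 5 anti-Helios peaks, against 39.5% of summits in the whole anti-Eos list and 51.0% in the anti-Helios list for the end of any protein-coding gene. The rule asked only for the nearest end and did not use which end it was. At the 4 further PP1 genes with a summit by the same rule, described below, every summit lay 1360 bp or more from a gene end. The Ppp1r16b summit at 1360 bp was nearer, at 958 bp, to an annotated start inside the gene record. The 4 further genes are not among the 8. Nearness to an end thus cannot be told apart from the choice of genes, and nothing is read from the comparison. For the 7 genes with an entry in the promoter table, which gives the strand, the nearer end was the start for 8 of 8 summits with anti-Eos and 4 of 4 with anti-Helios. The anti-Eos count has no distance limit and includes the Ppp1r9b summit 1427 bp from the start, which the comparison below would leave out. Among all summits within 1 kb of an end of a gene in that table, the nearer end was the start in 95.0% of 359 cases with anti-Eos and 97.9% of 191 with anti-Helios, so the 8 genes share this with the lists as a whole. Ppp1ca has no entry in the table, and its strand was not used here.

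Among the catalytic subunits, Ppp1cb, which encodes PP1 beta (chromosome 5, 32458848 to 32493713), carried an anti-Eos peak at 32458728 to 32458967 with a fold of 9.26 and a -log10 q of 11.5. Its anti-Helios peak at 32458768 to 32459042 had a fold of 11.3 and a -log10 q of 17.0. In the anti-Eos list 24.8% of peaks had a fold as high or higher, and in the anti-Helios list 10.2%. The summits lay 9 bp (anti-Eos) and 65 bp (anti-Helios) inside the gene record, which is 113 and 57 bp upstream of the start in the promoter table (32458970). The peaks rested on 17 fragments with anti-Eos (9.90 to 27.2) and 26 with anti-Helios (17.0 to 38.1).

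Ppp1ca, which encodes PP1 alpha (chromosome 19, 4192174 to 4195419), had an anti-Eos peak at 4191832 to 4192043 with a fold of 5.54 and a -log10 q of 5.19. Its anti-Helios peak at 4191936 to 4192192 had a fold of 9.0 and a -log10 q of 10.8. The anti-Eos peak was among the lower ones of its list, where 85.3% of peaks had a fold as high or higher, and the anti-Helios peak among the upper ones, with 29.2%. It rested on 15 fragments (8.40 to 24.7) over a local background of 1.89 with anti-Eos, and on 19 fragments (11.4 to 29.7) over 1.00 with anti-Helios. The summits were outside the gene, at 245 bp with anti-Eos and 165 bp with anti-Helios from its lower-coordinate end. An end of the neighbouring gene Tbc1d10c was the next nearest, at 734 and 814 bp, the closest protein-coding neighbour of any of the 14 summits.

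Ppp2ca, which encodes the alpha isoform of the PP2A catalytic subunit (chromosome 11, 52098824 to 52122749), showed a similar layout. The anti-Eos peak at 52098604 to 52098762 had a fold of 5.48, a -log10 q of 6.75 and 20 fragments (12.2 to 30.9) over a local background of 2.83. The anti-Helios peak at 52098567 to 52098786 had a fold of 9.90, a -log10 q of 12.0 and 21 fragments (13.0 to 32.1) over 1.00. Both summits fell on the same base, 167 bp upstream of the start. Folds at least as high made up 85.7% of the anti-Eos list and 19.2% of the anti-Helios list.

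At Ppp1ca and Ppp2ca the local background thus stood above the upper quartile of the anti-Eos list, which was 1.20, and in the anti-Helios list it was at the median of 1.00. Their fragment counts, 15 and 20, lay within the range of the other anti-Eos peaks at the 8 genes, 9 to 24. The recovered backgrounds were coarse, with values such as 0.943, 1.89 and 2.83 repeated through the anti-Eos list, and no interval was put on them. Whether the background accounts for the low anti-Eos folds there was not tested. Folds are relative to each list's own control, so a gene's standing holds within a list and folds were not compared between the lists.

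The scaffold gene of PP2A, Ppp2r1a (chromosome 17, 20945454 to 20965905), had the highest anti-Eos peak of the 8 genes. That peak, at 20945306 to 20945552, had a fold of 12.9, a -log10 q of 20.5 and 24 fragments (15.4 to 35.7), and 6.33% of the anti-Eos list reached its fold. The anti-Helios peak at 20945389 to 20945524 had a fold of 9.45, a -log10 q of 10.8 and 20 fragments (12.2 to 30.9), and 23.2% of the anti-Helios list reached its fold. The summits lay 9 bp (anti-Eos) and 10 bp (anti-Helios) downstream of the start.

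Ppp1r8 encodes NIPP1, a nuclear inhibitor and targeting subunit of PP1 (chromosome 4, 132826924 to 132843169). By fold it stood high in the anti-Eos list and low in the anti-Helios list, the reverse of Ppp1ca and Ppp2ca. Fragments with anti-Eos and anti-Helios were 19 and 17 at Ppp1r8, 15 and 19 at Ppp1ca, and 20 and 21 at Ppp2ca. These counts were not adjusted for the depth of each library. No preference for Eos or Helios is read from the counts or from the standings by fold. The anti-Eos peak at 132843112 to 132843250 had a fold of 10.3, a -log10 q of 14.0 and 19 fragments (11.4 to 29.7) over a local background of 0.943. The anti-Helios peak at 132843157 to 132843313 had a fold of 5.41, a -log10 q of 4.57 and 17 fragments (9.90 to 27.2) over 2.0, the upper quartile of that list. Folds as high or higher made up 16.5% of the anti-Eos list and 89.3% of the anti-Helios list. Summits were 14 bp (anti-Eos) and 77 bp (anti-Helios) upstream of the start.

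**Figure D2:**
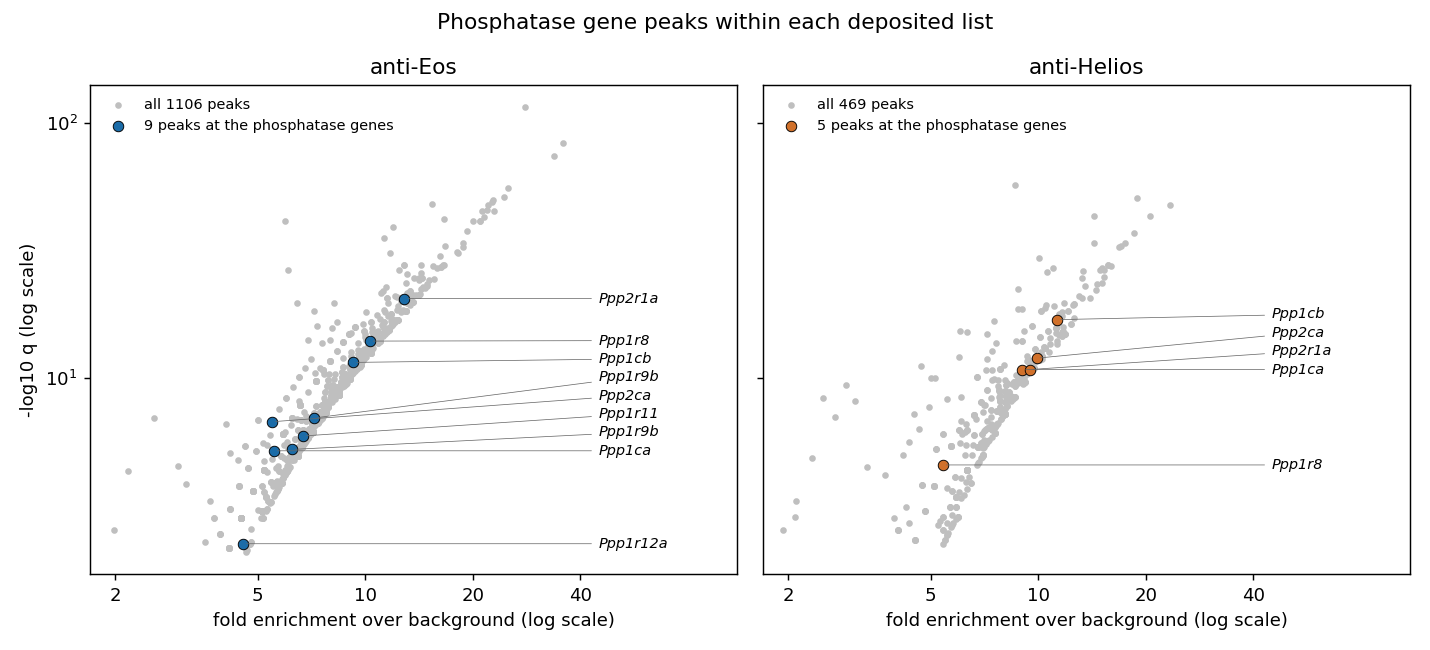
Each grey point is a peak of the anti-Eos list (left) or the anti-Helios list (right), by its fold enrichment and its -log10 q, both on log scales. Coloured points are the peaks at the 8 genes. Ppp1ca and Ppp2ca sit low in the left panel (folds 5.54 and 5.48) and in the upper part of the right panel (9.0 and 9.90), and Ppp1r8 the other way round (10.3 and 5.41). Positions hold within each panel only.

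Of the genes with anti-Eos peaks alone, Ppp1r9b encodes spinophilin, an actin-binding scaffold best known from neurons (chromosome 11, 94991212 to 95006898). Its peak nearer the gene, at 94990802 to 94990966, had a fold of 6.22, a -log10 q of 5.26 and 12 fragments (6.20 to 21), with the summit 389 bp upstream of the start. The farther peak, at 94989766 to 94989887, had a fold of 7.20, a -log10 q of 6.98 and 13 fragments (6.92 to 22.2), with the summit 1427 bp upstream. It was the farthest summit from an end at any of the 8 genes, so no summit was near the 100 kb limit of the rule.

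Ppp1r11, which encodes inhibitor-3 of PP1 (chromosome 17, 36948355 to 36951792), had a peak at 36951639 to 36951773 with a fold of 6.69, a -log10 q of 5.94 and 12 fragments (6.20 to 21). Its summit lay 63 bp downstream of the start, and Znrd1 was the next protein-coding gene, 2629 bp away. Ppp1r12a, which encodes MYPT1, the subunit that directs PP1 to myosin (chromosome 10, 108162092 to 108279985), had the lowest peak. That peak, at 108161891 to 108162031, had a fold of 4.55 and 9 fragments (4.12 to 17.1), with the summit 101 bp upstream of the start in the promoter table (108162098). Its -log10 q of 2.24 was close to the weakest value listed for anti-Eos, 2.08.

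Anti-Eos peaks without an anti-Helios partner had folds of 4.55 to 7.20 and 9 to 13 fragments, and those with a partner 5.48 to 12.9 and 15 to 24. The fragment ranges did not meet, although the Poisson intervals of the single peaks overlapped, even those of Ppp1r12a (4.12 to 17.1) and Ppp2r1a (15.4 to 35.7). The -log10 q ranges did meet, at 2.24 to 6.98 without a partner and 5.19 to 20.5 with one. Over the whole list, 14.5% of the 509 anti-Eos peaks with a -log10 q of 2.24 to 6.98 had an anti-Helios partner, and so did 40.5% of the 578 above that range. Ppp1ca and Ppp2ca were in the lower of these classes and had a partner, and Ppp1cb, Ppp1r8 and Ppp2r1a were in the upper.

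**Figure D3:**
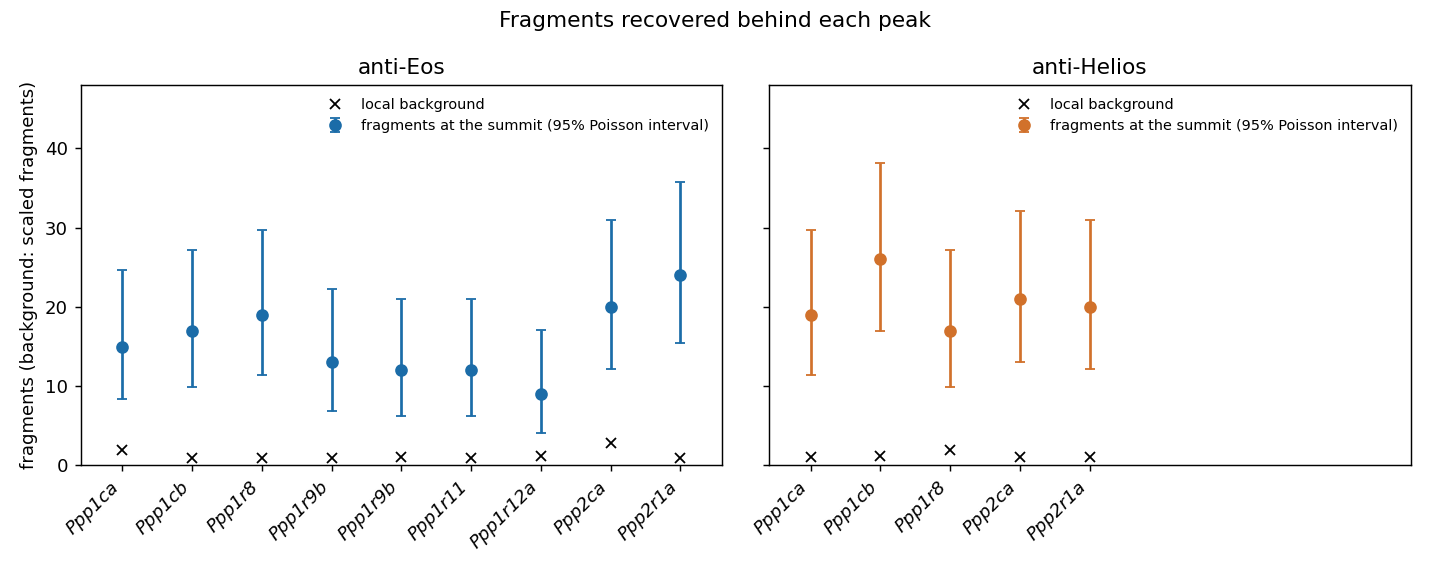
Points are the fragments recovered at the summit of each peak, with exact 95% Poisson intervals, for anti-Eos (left) and anti-Helios (right). Crosses are the local background in scaled fragments. Anti-Eos counts run from 9 at Ppp1r12a to 24 at Ppp2r1a and anti-Helios counts from 17 at Ppp1r8 to 26 at Ppp1cb, with overlapping intervals within each list.

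The 5 overlapping pairs differed in the distance between their summits. The summits coincided at Ppp2ca (0 bp apart) and almost did at Ppp2r1a (1 bp), the PP2A genes. At the PP1 genes they were 56 bp apart at Ppp1cb, 63 bp at Ppp1r8 and 80 bp at Ppp1ca. Along the gene, the anti-Eos summit was the more upstream at Ppp1cb and the more downstream at Ppp1r8, so the offset had no common direction. Over all 310 overlapping pairs the median distance was 30.5 bp, with quartiles of 13.0 and 64.0 bp, and 81.6% of pairs were no farther apart than the pair at Ppp1ca. With 5 pairs and no estimate of how precisely a summit is placed, no difference between PP1 and PP2A genes is read from these distances. The common stretch was 108 bp at Ppp1ca, 200 bp at Ppp1cb, 94 bp at Ppp1r8, 159 bp at Ppp2ca and 136 bp at Ppp2r1a. At Ppp2ca it made up 100% of the anti-Eos peak, and at Ppp2r1a 100% of the anti-Helios peak. Peak widths were 122 to 247 bp (anti-Eos) and 136 to 275 bp (anti-Helios).

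**Figure D4:**
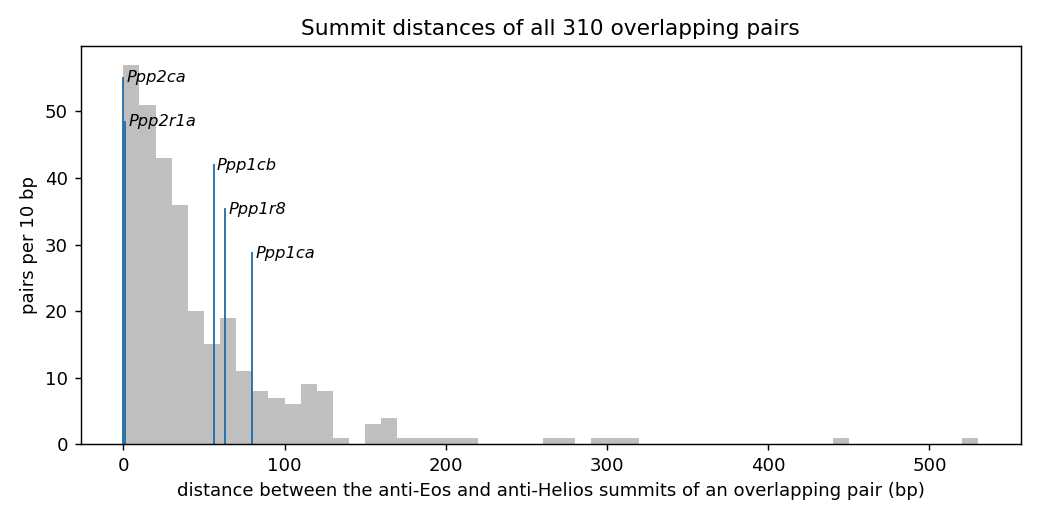
The grey histogram gives the distance in bp between the anti-Eos and anti-Helios summits of all 310 overlapping pairs, in classes of 10 bp. Vertical lines mark the 5 pairs at the phosphatase genes, at 0, 1, 56, 63 and 80 bp.

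Sequence motifs were then looked up on both strands in promoter windows of 250 bases before to 50 after each annotated start, for the 7 genes in the table. The Ikaros family core GGGAA was present in the windows of Ppp1cb, Ppp1r8, Ppp1r12a, Ppp2ca and Ppp2r1a, and these 5 were also the genes with a summit inside the window. For comparison, 62.7% of all 32851 windows held the core, 79.0% of the 314 windows with an anti-Eos summit and 79.5% of the 185 with an anti-Helios summit. A match is therefore common with and without a peak. The match nearest to the anti-Eos summit was 5 bp away at Ppp1r8, 13 bp at Ppp2ca, 20 bp at Ppp1cb (a match inside the gene record, beyond the printed stretch), 31 bp at Ppp2r1a and 41 bp at Ppp1r12a. From the anti-Helios summit it was 13 bp at Ppp2ca, 32 bp at Ppp1cb and Ppp2r1a and 68 bp at Ppp1r8. At Ppp2ca, where the summits coincide, 2 matches follow each other directly in the printed sequence.

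The GC box GGGCGG was found in the same 5 windows, against 35.7% of all windows, 59.2% of those with an anti-Eos and 67.0% of those with an anti-Helios summit. At Ppp2ca a match lay 4 bp from both summits, and at Ppp1cb 1 bp from the anti-Helios summit and 29 bp from the anti-Eos summit. The nearest at Ppp2r1a was 15 bp from the anti-Eos and 16 bp from the anti-Helios summit. At Ppp1r8 and Ppp1r12a the matches lay outside the peaks, 131 and 127 bp or more from the anti-Eos summit. The match at Ppp1r8 adjoined the end of the anti-Helios peak, 68 bp from the anti-Helios summit. Other motifs occurred once each. The cAMP response element TGACGTCA at Ppp2ca (1.79% of all windows, 4.14% of those with an anti-Eos summit) lay 26 bp upstream of the start, outside both peaks and 141 bp from their summits. Ppp2ca held the single match among the 185 windows with an anti-Helios summit (0.541%). The ETS motif CCGGAAG at Ppp2r1a (8.86%, 28.7% with an anti-Eos and 30.3% with an anti-Helios summit) lay outside the peaks.

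At Ppp1r12a the NRF1 palindrome, GCGCA followed by TGCGC, lay 42 bp from the anti-Eos summit and outside the peak (0.971% of all windows, 2.23% of those with an anti-Eos and 1.62% with an anti-Helios summit). The YY1 motif AAGATGGC at Ppp1r8 lay downstream of the second annotated start, partly under the edge of the anti-Eos peak and outside the anti-Helios peak (2.75%, 4.14% and 4.86%). Matches of different motifs did not overlap in these windows. The windows of Ppp1r9b and Ppp1r11 held none of these motifs and no summit. The GC content of the windows ranged from 51.3% at Ppp1r11 to 77.3% at Ppp1r9b, against a median of 52.7% over all windows, 61.3% with an anti-Eos and 64.0% with an anti-Helios summit.

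Other phosphatase genes were looked up by the same rule, under which 4.38% of all protein-coding genes had an anti-Eos summit and 2.12% an anti-Helios summit. Of 42 further PP1 subunit genes, 4 had an anti-Eos summit and 1 an anti-Helios summit. Of 17 further PP2A subunit genes, 10 genes for modulators of PP2A and 18 genes of other phosphatases of the same superfamily (such as calcineurin and PP4), 0 had a summit of either antibody. Set beside those shares, the counts are no result about these lists. With the 8 genes included, 12 of 67 PP1 and PP2A subunit genes had an anti-Eos summit (17.9%) and 6 an anti-Helios summit (8.96%). The 8 genes were picked from this family with their peaks known, and the 4 further PP1 genes with peaks were not picked. The split between the 8 genes and the rest of the family depends on that choice.

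The 4 further genes had their summits inside the gene, at 1360 bp or more from its ends. Ppp1r18 encodes phostensin, an actin-binding PP1 subunit, and was the one with both antibodies, with folds of 5.48 (anti-Eos) and 4.81 (anti-Helios), summits 58 bp apart and 4728 and 4786 bp from a gene end. Ppp1r16b, for a membrane-associated PP1 subunit, had 2 anti-Eos peaks, with folds of 4.79 and 6.17 at 1360 and 42834 bp from an end. The former summit lay 958 bp downstream of an annotated start inside the gene record. Ppp1r21, linked to endosomal sorting, had an anti-Eos peak with a fold of 6.17 at 6740 bp. Ppp1r3f, for a subunit of the glycogen-targeting group, had an anti-Eos peak with a fold of 5.55 at 3332 bp. Foxp3 was the next protein-coding gene from that summit, at 8727 bp, and the long noncoding RNA gene Flicr lay nearer, at 2651 bp. The anti-Eos folds at the 4 further genes, 4.79 to 6.17, were all below the median of the list, 7.31, as were 6 of the 9 at the 8 genes.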

How the data were processed

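The submitters' processing notes name BWA 0.7.1, SAMtools 1.17, Picard, deepTools 3.5.1 and cutadapt 4.4, and as builds GRCm38.p6 and mm10. The sources used here do not give the peak caller or its control. Cells were fixed for 10 min in 1% formaldehyde, per the labels' protocols. Each deposited list gives per peak the authors' fold (a ratio over background), -log10 p-value, -log10 q-value, a score (10 times the -log10 q, cut to a whole number, in all 1106 and all 469 peaks) and the offset of the summit, another per-peak number.

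Summits were assigned with the RefSeq gene table of GRCm38.p6 and gene starts taken from the RefSeq promoter table (Python 3.11.15, pandas 2.3.3, NumPy 2.4.6, SciPy 1.17.1). The formula for fragments, in which the fold is the ratio of scaled fragments to local background, each raised by 1, and p the upper Poisson tail, gave both deposited values for 100% of peaks in each list within a relative tolerance of 0.0001. Fragments were scaled by 1 (anti-Eos) and 0.895 (anti-Helios). Assignment and recovery were tested on simulated data. The genes and lists were chosen with earlier results of these data known. All peaks of the 8 genes, and every other listed phosphatase gene with a summit, are named.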

Additional observations from a re-analysis of the deposited data

How the results depend on the processing

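The 10 counts were recomputed with assignment within 10 kb and 500 kb, a -log10 q of at least 5, the nearest end only, genes of every biotype competing, gene starts in place of ends, stricter overlap and other limits for nearness. Of 68 such values, 65 stayed within 1.5 times the count reported. The 10 kb limit could not change the counts at the 8 genes, whose summits all lay within 1427 bp of an end. Part of this agreement, and of that at single genes below, was thus fixed in advance. With a -log10 q of at least 5, the other phosphatase genes with an anti-Eos summit numbered 1 and not 4, and those with an anti-Helios summit 0 and not 1. With gene starts, 3 of these genes had an anti-Helios summit. Of 96 counts at single genes, 92 stayed; anti-Eos at Ppp1r12a and anti-Helios at Ppp1r8 were lost with the -log10 q of at least 5, and both antibodies at Ppp1ca, which has no start in the promoter table, with gene starts. Leaving out a library was not possible with 1 per group. No paired analysis was possible because each group holds 1 library. Few fragments per peak limit the precision of every fold.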

Other observations

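The anti-Eos peaks at Ppp2ca and Ppp1r18, on different chromosomes, had the same fold of 5.48 and -log10 q of 6.75, each with 20 fragments over a local background of 2.83. Other peaks of the anti-Eos list had the same values, since whole fragment counts over recurring backgrounds give recurring folds. The match is thus no link between these genes.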
